A study of Mus musculus with 160 samples.

Results

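RNA levels of 9 genes that encode Polycomb proteins were followed through 5 tissues of Q175 and wild-type (WT) mice. The genes were found by gene symbol among the 43432 Ensembl genes of the deposited tables, and each of Sfmbt2, Cbx2, Cbx6, Cbx7, Cbx8, Ezh1, Ezh2, Eed and Suz12 matched 1 row. All 9 passed the filter on low counts in every tissue. The study had 32 mice of the C57BL/6J strain, and each gave striatum, cortex, tibialis muscle, heart and liver at 6 months of age, so that 160 libraries were sequenced. In each tissue there were 8 heterozygous Q175 mice on vehicle, 8 on 30 mg/kg and 8 on 100 mg/kg of CHDI-00390576, and 8 WT mice on vehicle, with 4 males and 4 females in every group. CHDI-00390576, an inhibitor of class IIa histone deacetylases, and its vehicle were dosed orally b.i.d., starting when the mice were 4 weeks old. No WT mice on the compound were analysed. Q175 mice carry an Htt allele with an expanded CAG repeat, knocked into the endogenous locus and therefore present in every cell, as a model of Huntington's disease.

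Polycomb proteins keep genes silent, chiefly developmental regulators. Polycomb repressive complex 2 (PRC2) is built from Eed and Suz12 with either Ezh2 or Ezh1, the enzymes that methylate lysine 27 of histone H3. Polycomb repressive complex 1 (PRC1) ubiquitinates histone H2A, and its canonical forms hold a Cbx subunit whose chromodomain binds that methylated lysine. Sfmbt2 is a protein with MBT repeats, related to the Drosophila protein Sfmbt, which works with the DNA-binding protein Pho. In mice Sfmbt2 is an imprinted gene needed in the placenta, and an intron of it holds a large cluster of microRNA genes. In adult striatal neurons of mice, PRC2 is known for keeping genes of other cell types off.

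The sequences before the starts of Sfmbt2 and Cbx8 are shown because these were the members whose RNA differed between Q175 and WT striatum. They come from RefSeq on GRCm38.p6, and the strand given is that of the gene. Capitals mark a GC box (GGGCGG on either strand), the element bound by Sp1.
Sfmbt2, upstream start, chr2:10370201-10370450, plus strand: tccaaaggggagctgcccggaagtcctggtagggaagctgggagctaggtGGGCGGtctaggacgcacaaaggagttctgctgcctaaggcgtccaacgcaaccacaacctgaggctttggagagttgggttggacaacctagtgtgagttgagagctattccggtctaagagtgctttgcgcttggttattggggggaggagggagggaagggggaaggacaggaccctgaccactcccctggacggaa
Sfmbt2, downstream start, chr2:10372186-10372435, plus strand: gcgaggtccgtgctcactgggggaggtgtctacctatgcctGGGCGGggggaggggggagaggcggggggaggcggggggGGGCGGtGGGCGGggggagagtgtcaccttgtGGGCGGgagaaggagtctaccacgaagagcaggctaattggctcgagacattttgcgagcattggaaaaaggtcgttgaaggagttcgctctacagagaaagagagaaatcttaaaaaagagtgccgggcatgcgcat
Cbx8, chr11:119040970-119041163, minus strand: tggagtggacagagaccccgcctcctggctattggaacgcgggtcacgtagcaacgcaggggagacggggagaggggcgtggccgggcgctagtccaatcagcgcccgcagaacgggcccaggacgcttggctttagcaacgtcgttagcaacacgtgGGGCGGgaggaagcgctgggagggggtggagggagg
Over the 250 bases before each start, the Sfmbt2 windows had 58.4% and 60.8% GC with 8 and 15 CpG sites, and the Cbx8 window had 66.4% GC with 22 CpG sites. All 32851 RefSeq windows of this length had a median of 52.4% GC and 6 CpG sites. The last 56 bases of the Cbx8 window lie in the first exon of a GENCODE transcript and are not printed. They hold a cAMP response element (TGACGTCA), which 1.55% of all windows contain. The upstream Sfmbt2 window held 1 GC box, the downstream window 4 and the Cbx8 window 1, and 32.7% of all windows held at least 1. The windows of 6 other members, 1 each, ranged over 54.4% to 73.6% GC and 12 to 37 CpG sites. None of the 9 windows of these 8 members held the letters AAGATGGC, a YY1 site present in 1.56% of all windows, and none held a MEF2 site (CTA and TAG with any 4 bases between them), present in 3.2%. Cbx2 had no entry in the table of windows.

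Each library held between 29.8 and 44.9 mega (M) of estimated counts, and levels are given in CPM, counts per mega of a library scaled by TMM, unless FPKM is named. Replicates were separate mice. 3 striata stood apart from the Q175 groups they were labelled with, namely Q175 vehicle M2 and 100 mg/kg M3 and M4. The summed level of 8 markers of medium spiny neurons, the projection neurons of the striatum, was 5147 to 6311 CPM in these 3 libraries, 3661 to 4417 CPM in the other 21 Q175 striata and 5489 to 7014 CPM in WT striata. Wt1, a transcription factor gene, was at 0.06 to 0.14 CPM in the 3, at 3.16 to 5.99 CPM in the other 21 Q175 striata and at 0 to 0.27 CPM in WT. They were kept under their labels, and the fits in striatum were repeated without them. In 9 libraries transcripts of another tissue exceeded 0.1% of their level there, up to 26.1% for muscle transcripts in cortex 30 mg/kg F4.

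Sfmbt2 RNA was higher in Q175 striatum than in WT striatum, in each of the 3 Q175 arms. Its lowest, median and highest levels were 5.43, 12.4 and 14.1 CPM in Q175 on vehicle, 11.6, 13.5 and 15.5 CPM at 30 mg/kg, 5.62, 13.1 and 14.7 CPM at 100 mg/kg, and 2.37, 3.46 and 4.72 CPM in WT. All 24 Q175 striata lay above every WT striatum. The lowest Q175 levels, 5.43, 5.62 and 6.38 CPM, belonged to the 3 striata that stood apart, and the other 21 had 10.3 to 15.5 CPM. These levels rested on 166 to 554 estimated counts per Q175 library and 81 to 163 per WT library. The log2 fold change against WT was 1.67 ± 0.18 (SE) on vehicle, a 3.18-fold difference (edgeR adjusted p = 5.92e-07). It was 1.91 ± 0.18 at 30 mg/kg (edgeR adjusted p = 3.49e-08) and 1.68 ± 0.18 at 100 mg/kg (edgeR adjusted p = 7.57e-07), against the same WT libraries. Without the 3 striata that stood apart the values were 1.77, 1.90 and 1.88. The miRNA genes within Sfmbt2 that the table holds each had a median of 0 CPM over the 160 libraries of all 5 tissues. That of Sfmbt2 itself was 0.382 CPM (both without TMM scaling), and these medians do not describe striatum alone.

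Cbx8, a chromodomain subunit of PRC1, was also higher in all 3 Q175 arms of striatum. Its lowest, median and highest levels were 4.10, 6.73 and 10.1 CPM in Q175 on vehicle, 4.99, 6.14 and 8.32 CPM at 30 mg/kg, 3.01, 6.03 and 7.66 CPM at 100 mg/kg, and 2.35, 3.30 and 4.38 CPM in WT. The 30 mg/kg group did not overlap WT, while 7 of 8 striata on vehicle and 6 of 8 at 100 mg/kg lay above the WT range. The 3 that did not were the striata that stood apart, at 4.10, 3.01 and 3.40 CPM. The log2 fold change against WT was 1.05 ± 0.17 on vehicle, a 2.07-fold difference (edgeR adjusted p = 0.000145). It was 0.95 ± 0.17 at 30 mg/kg (edgeR adjusted p = 0.000436) and 0.77 ± 0.17 at 100 mg/kg (edgeR adjusted p = 0.00493). Without the 3 striata that stood apart it was 1.12, 0.95 and 0.96. In FPKM, Cbx8 averaged 2.34 ± 0.829 in Q175 on vehicle and 0.958 ± 0.20 in WT (SD, n = 8 each). The gene length that the deposited FPKM implies for Cbx8 was 3108 ± 237 bases in Q175 on vehicle and 3457 ± 179 bases in WT (SD, n = 8 each). These lengths spanned 2735 to 3413 bases in Q175 and 3163 to 3580 bases in WT, so that part of the FPKM difference lies in the length used and not in the count.

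**Figure D1:**
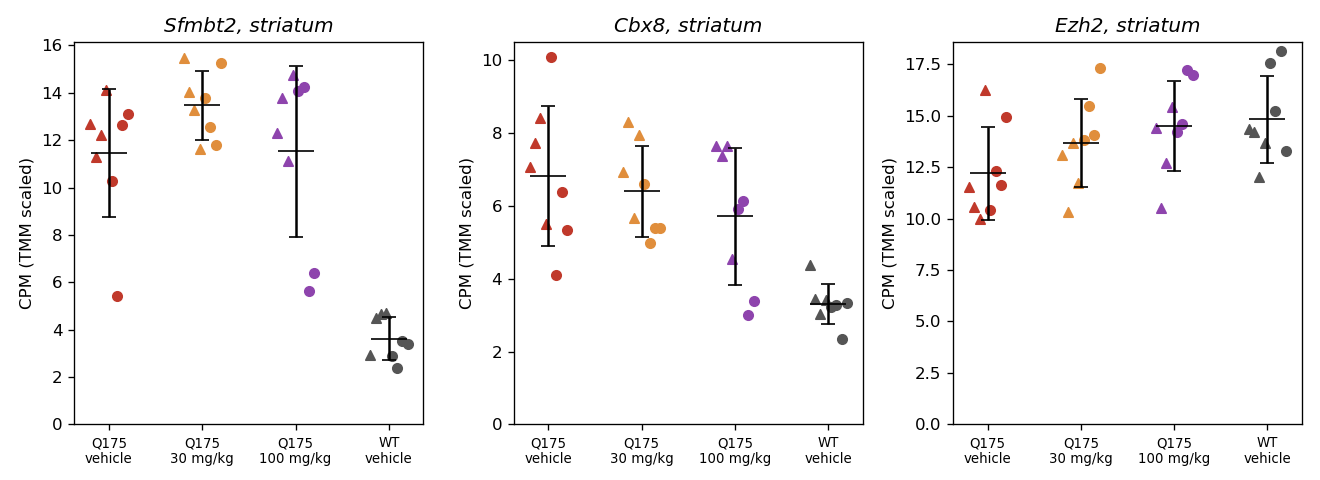
Levels of Sfmbt2, Cbx8 and Ezh2 in striatum (CPM, 1 panel per gene, each with its own axis) in Q175 on vehicle, 30 and 100 mg/kg and in WT, with circles for males, triangles for females and bars for the mean ± SD of 8 mice. Every Q175 striatum lies above WT for Sfmbt2 and all but 3 for Cbx8, while for Ezh2 the Q175 groups overlap WT.

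The striatum is made of many cell types, and in bulk RNA fewer cells of a type and less RNA per cell cannot be told apart. Of 8 markers of medium spiny neurons, 4 were lower in Q175 on vehicle than in WT, with a summed level of 3661 to 5251 CPM in Q175 and 5489 to 7014 CPM in WT. Of 5 oligodendrocyte markers 2 were lower, with a summed level of 4690 to 6819 CPM in Q175 and 6665 to 7554 CPM in WT. None of the 5 astrocyte or 6 microglial markers passed the threshold. With the mean log2 level of the medium spiny neuron markers as a covariate, the log2 fold change on vehicle was 1.0096 ± 0.19 for Sfmbt2 (edgeR adjusted p = 0.000660) and 1.18 ± 0.24 for Cbx8 (edgeR adjusted p = 0.000745), and without the 3 striata that stood apart 1.40 ± 0.16 and 1.75 ± 0.16. That covariate also brought other members past the threshold, 8 of 9 in all and 9 of 9 without the 3 striata, beside 8683 and 10969 genes. The summed marker level did not overlap between Q175 on vehicle and WT, so these fits cannot cleanly separate genotype from the covariate. Choroid plexus markers varied from 31.0 to 1727 CPM in Q175 on vehicle and from 26.8 to 215 CPM in WT, and their part in the result was not tested.

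The other 7 members did not pass the threshold between Q175 on vehicle and WT in striatum. The count was thus 2 of 9 members, both higher, beside 5.76% of the 17229 genes tested in either direction and 2.59% higher. The members were chosen with the rise of Sfmbt2 and Cbx8 already known, so the count is no test of the members as a set. The members' median log2 fold change was 0.14, and that of all genes 0.02. The count was also 2 of 9, the same 2 genes, at 30 mg/kg against WT (6.69% of all genes, 3.32% higher) and at 100 mg/kg against WT (4.94%, 2.4% higher). These 2 genes were also the members called in each arm without the 3 striata that stood apart. Among the PRC1 subunits, Cbx2 averaged 3.27 ± 0.851 CPM in Q175 on vehicle and 2.75 ± 0.625 CPM in WT (log2 0.25 ± 0.19, edgeR adjusted p = 0.438). Cbx6 averaged 174 ± 34.7 CPM in Q175 and 157 ± 24.1 CPM in WT (log2 0.15 ± 0.13, edgeR adjusted p = 0.521), and Cbx7 45.3 ± 9.32 CPM in Q175 and 41.2 ± 7.64 CPM in WT (log2 0.14 ± 0.16, edgeR adjusted p = 0.637). Cbx2 lies beside Cbx8 on chromosome 11 and did not pass the threshold itself.

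The 4 PRC2 genes did not pass the threshold in striatum. Ezh2, the methyltransferase most linked to dividing cells, was at 9.96, 11.6 and 16.2 CPM (lowest, median and highest) in Q175 on vehicle and at 12.03, 14.3 and 18.1 CPM in WT. Its groups overlapped, although 5 of 8 Q175 striata were below the WT range, and the log2 fold change of −0.27 ± 0.10 missed the threshold (edgeR adjusted p = 0.113). Ezh1, the methyltransferase that persists in non-dividing cells, averaged 65.6 ± 6.00 CPM in Q175 and 63.1 ± 2.69 CPM in WT (log2 0.06 ± 0.06, edgeR adjusted p = 0.597). Eed, which binds the methyl mark, averaged 16.4 ± 2.55 CPM in Q175 and 16.3 ± 2.01 CPM in WT (log2 0.01 ± 0.11, edgeR adjusted p = 0.973). Suz12, the scaffold subunit, averaged 69.3 ± 12.1 CPM in Q175 and 73.3 ± 12.7 CPM in WT (log2 −0.08 ± 0.13, edgeR adjusted p = 0.730). A p above the threshold does not show that the levels were equal.

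Much of the spread within striatal groups followed the GC content of the transcripts. For each library, log2 CPM less the gene's mean over the tissue's libraries was fitted on transcript GC content, over all well-expressed genes. The slope, per 10% GC, is thus relative to the tissue average, and the members' own values are among those used. This slope ran from −0.202 to 0.572 with a median of 0.189 in Q175 on vehicle, from −0.573 to 0.389 with a median of −0.149 at 30 mg/kg, from −0.511 to 0.320 with a median of −0.175 at 100 mg/kg, and from −0.356 to 0.282 with a median of 0.00823 in WT. Over the 32 striata, log2 CPM correlated with the slope at r = 0.985 for Cbx6, 0.970 for Cbx7 and 0.863 for Cbx2, whose transcripts have 54.9%, 56.5% and 57.6% GC. The correlation was −0.978 for Suz12, −0.876 for Eed and −0.790 for Ezh2, whose transcripts have 41.6%, 47.8% and 44.4% GC. It was 0.491 for Ezh1 at 51.3% GC, 0.469 for Cbx8 at 54.9% GC and −0.102 for Sfmbt2 at 46.0% GC. After group and sex were taken out, it was 0.985 for Cbx6, −0.981 for Suz12, 0.698 for Cbx8 and −0.273 for Sfmbt2. With the 3 striata that stood apart left out, these last values were 0.988, −0.981, 0.872 and −0.556. In the 32 cortices Sfmbt2 correlated with the slope at −0.689, and at −0.734 after group and sex were taken out.

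**Figure D2:**
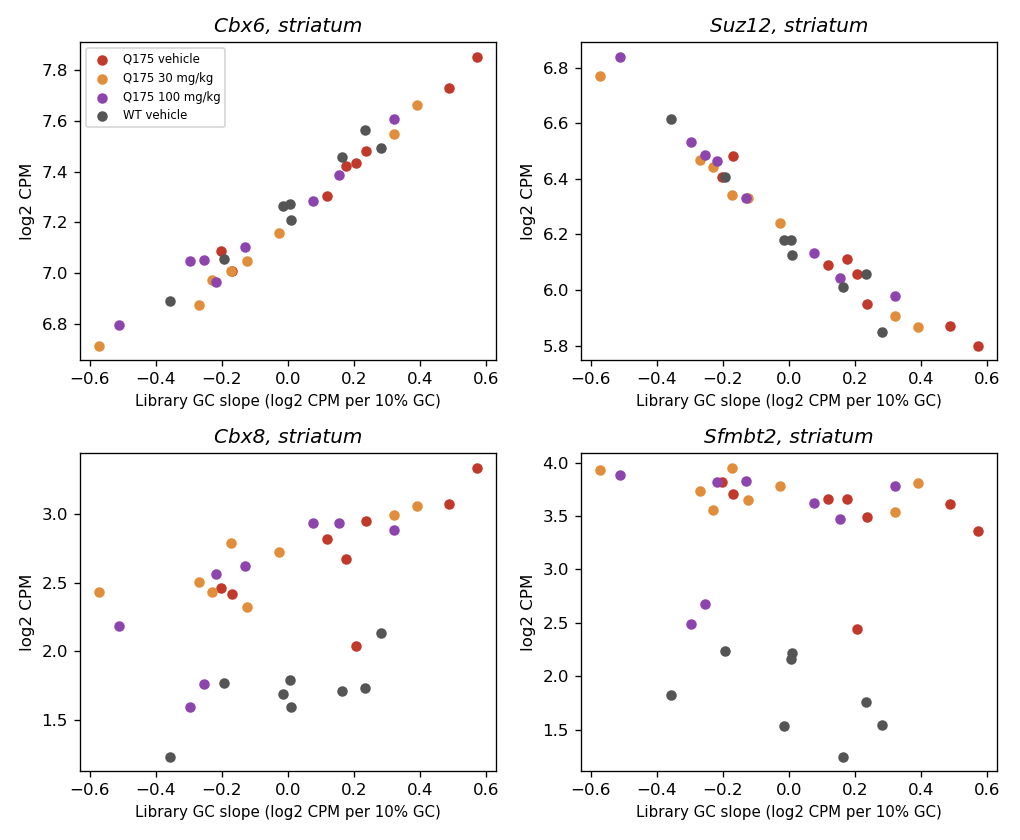
Level of Cbx6, Suz12, Cbx8 and Sfmbt2 in each of the 32 striata (log2 CPM) against the library's GC slope (log2 CPM per 10% transcript GC), coloured by arm. Cbx6 rises with the slope (r = 0.985), Suz12 falls with it (r = −0.978), and Sfmbt2 is higher in every Q175 striatum than in every WT striatum.

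The slope was added as a covariate after the data were seen. The log2 fold change on vehicle against WT was then 1.73 ± 0.18 for Sfmbt2 (edgeR adjusted p = 2.51e-07) and 0.89 ± 0.12 for Cbx8 (edgeR adjusted p = 4.68e-06). For Cbx8 the 3 arms then lay close together, at 0.89, 1.04 and 0.87. This fit gave, without the 3 striata that stood apart, 1.83, 1.86 and 1.84 for Sfmbt2 and 0.97, 1.03 and 1.02 for Cbx8. Ezh2 then passed the threshold at −0.19 ± 0.06 on vehicle (edgeR adjusted p = 0.0329) and −0.19 ± 0.06 at 30 mg/kg (edgeR adjusted p = 0.0323), but not at 100 mg/kg (−0.11 ± 0.06, edgeR adjusted p = 0.242), and the same held without the 3 striata. Cbx6 and Cbx7 then stood at −0.03 ± 0.03 and −0.07 ± 0.04. Eed stood at 0.12 (edgeR adjusted p = 0.111) and Suz12 at 0.07 (edgeR adjusted p = 0.128). This fit called 2794 genes in all on vehicle, beside 992 without the slope.

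**Figure D3:**
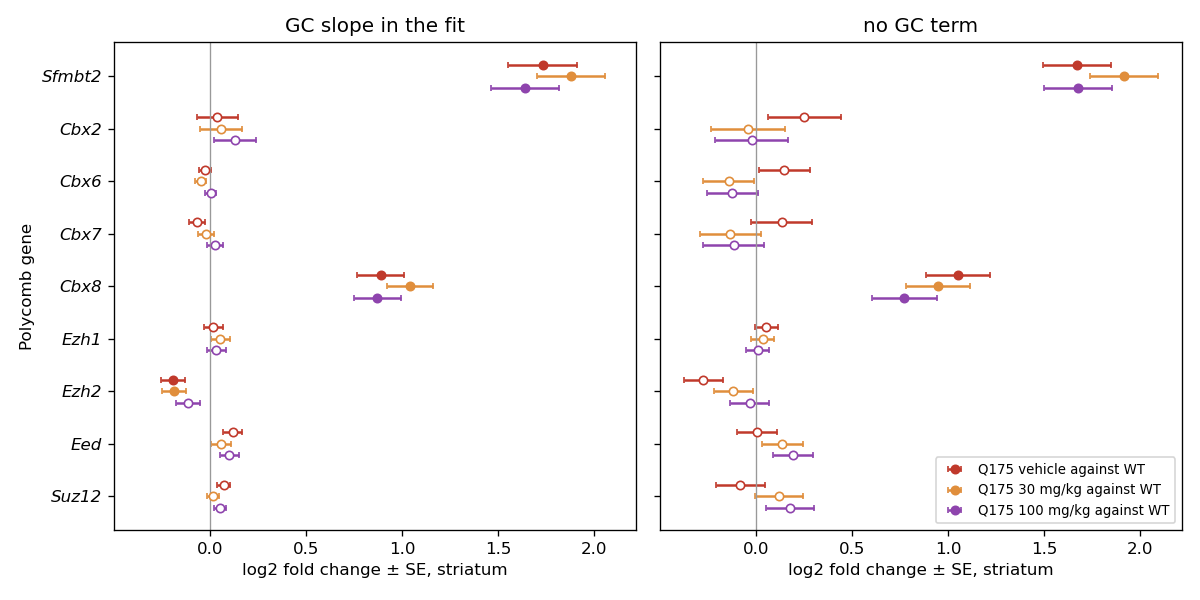
Log2 fold change against WT in striatum (bars are SE) for the 9 members in the 3 Q175 arms, with the GC slope in the fit (left) and without it (right). Filled points have an edgeR adjusted p under 0.05. Sfmbt2 and Cbx8 are filled in all 3 arms in both panels, and Ezh2 in 2 arms with the slope.

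Other genes of the Polycomb complexes were looked up from a list of 44, of which 43 were in the table and tested in striatum. Of 9 other PRC2 genes tested, 7 genes of the Sfmbt and MBT group, 4 of the PR-DUB deubiquitinase and 2 demethylases of H3 lysine 27, none passed on vehicle against WT, with median log2 fold changes of −0.11, 0.07, −0.01 and 0.12. L3mbtl3, an MBT protein, rose at 100 mg/kg against WT, with 29.0 ± 3.10 CPM at 100 mg/kg and 23.6 ± 2.24 CPM in WT (log2 0.30 ± 0.08, edgeR adjusted p = 0.0345). That call was lost without the 3 striata that stood apart (log2 0.21, edgeR adjusted p = 0.174), without the striata that held liver transcripts (log2 0.31, edgeR adjusted p = 0.0763) and in 8 of 32 fits that each left out 1 library.

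Classical Polycomb targets were mostly too low to test in striatum. Of 39 Hox genes in the table, which set positional identity in the embryo, 2 passed the filter on low counts. Hoxa7 was at 0.262 ± 0.114 CPM in Q175 on vehicle and 0.0664 ± 0.0376 CPM in WT, and Hoxc4 was at 0.354 ± 0.199 CPM in Q175 and had no count in WT (SD, n = 8 each). Both were called higher (edgeR adjusted p = 0.00248 for Hoxa7 and 0.000247 for Hoxc4), but they entered the test through the Q175 libraries and are no count over Hox genes. Of the 2 Ink4 genes, cell-cycle inhibitors under Polycomb control, 1 was tested and did not pass.

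In the edgeR fits of all arms together, none of the 9 members passed the threshold between Q175 arms in any tissue. DESeq2 called members between the doses in cortex (values are given with cortex) and in no other dose contrast. Fits of 2 arms alone called members in cortex and in liver, given with those tissues. Over 135 tests, 9 members in 15 contrasts between Q175 arms, log2 fold changes ran from −0.80 to 0.66 and the smallest edgeR adjusted p was 0.0564, while 18 had an unadjusted p under 0.05. In striatum 0% of the 17229 genes were called in each dose contrast, though 2873 genes at 30 mg/kg against vehicle and 4243 at 100 mg/kg against vehicle had an unadjusted p under 0.05, and DESeq2 called 0 and 3 genes there. Sfmbt2 stood at 0.24 ± 0.17 at 30 mg/kg (edgeR adjusted p = 0.354) and at 0.00 ± 0.17 at 100 mg/kg (edgeR adjusted p = 0.987), both against vehicle. Cbx8 stood at −0.28 ± 0.16 at 100 mg/kg against vehicle (edgeR adjusted p = 0.252). Without the 3 striata that stood apart, Sfmbt2 stood at 0.14 ± 0.11 and 0.11 ± 0.12 and Cbx8 at −0.17 ± 0.14 and −0.17 ± 0.15, at 30 and 100 mg/kg against vehicle. These standard errors leave room for a partial change of either gene.

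In cortex 7 members had an unadjusted p under 0.05 between the doses, as did 8053 of the 17597 genes tested. The values at 100 mg/kg against 30 mg/kg were −0.66 for Cbx2, −0.46 for Cbx6, −0.43 for Cbx7, −0.54 for Cbx8, 0.37 for Sfmbt2, 0.36 for Ezh2 and 0.47 for Suz12, with edgeR adjusted p from 0.0564 to 0.101, and 0.693% of all genes were called. DESeq2 called 6 of these members, all but Sfmbt2, and an edgeR fit of the 2 arms alone called all 7. The shares of all genes in these 2 fits are not given here, so the calls are not read as a trait of the members. Cbx2 averaged 1.85 ± 0.369 CPM at 100 mg/kg and 2.95 ± 0.684 CPM at 30 mg/kg, and Suz12 78.8 ± 13.4 CPM at 100 mg/kg and 56.9 ± 13.8 CPM at 30 mg/kg. The negative values belonged to the Cbx genes, whose transcripts are richest in GC, and the positive values to Suz12, Ezh2 and Sfmbt2. In the same libraries the GC slope had a median of −0.173 at 100 mg/kg, against 0.283 at 30 mg/kg. With the slope as a covariate no member differed between the doses by more than log2 0.17, and every edgeR adjusted p was above 0.99. The slope itself differed between these groups and was taken from the same counts, so this fit cannot cleanly separate dose from slope. The cause of the differences was not tested. Muscle transcripts stood at 26.1% and 6.03% of their muscle level in cortex 30 mg/kg F4 and M3. Without these 2 libraries Cbx2 stood at −0.58 and the smallest adjusted p of a member was 0.253.

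In liver the smallest adjusted p of a member belonged to Cbx2. It averaged 7.99 ± 1.35 CPM at 30 mg/kg, 8.17 ± 0.906 CPM at 100 mg/kg, 9.995 ± 1.11 CPM in Q175 on vehicle and 9.09 ± 1.90 CPM in WT. The value at 100 mg/kg against vehicle was −0.29 ± 0.10 (edgeR adjusted p = 0.0928), in a contrast where 6.85% of all genes were called and no member was. A fit of these 2 arms alone called Cbx2. The share of all genes in that fit is not given here, so the call is not read as a trait of Cbx2. The other dose contrasts outside striatum called few genes: 0.318% (30 mg/kg against vehicle) and 0% (100 mg/kg against vehicle) in cortex, 0% in each in tibialis, 0.00626%, 0.00626% and 0% in heart (30 and 100 mg/kg against vehicle, then between doses), and 0% (30 mg/kg against vehicle) and 0.627% (100 against 30 mg/kg) in liver.

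The rise of Sfmbt2 and Cbx8 was not called outside striatum. None of the 9 members passed the threshold in any Q175 arm against WT in cortex, tibialis, heart or liver, where 0.0341%, 0%, 0.00626% and 0.00667% of all genes were called on vehicle. At 30 mg/kg against WT these shares were 0.688%, 0%, 0.00626% and 0.0533%, and at 100 mg/kg against WT 0.0455%, 0%, 0.0188% and 7.21%. Cortical Sfmbt2 averaged 7.32 ± 1.99 CPM in Q175 on vehicle, 5.96 ± 1.35 CPM at 30 mg/kg, 7.75 ± 1.48 CPM at 100 mg/kg and 5.22 ± 1.19 CPM in WT. It stood at 0.48 ± 0.18 on vehicle against WT (edgeR adjusted p = 1) and at 0.57 ± 0.18 at 100 mg/kg against WT (edgeR adjusted p = 0.367). With the GC slope in the fit, the 3 arms stood at 0.42, 0.38 and 0.41 (edgeR adjusted p from 0.179 to 0.185), positive in each arm. In tibialis, heart and liver Sfmbt2 stood at −0.54, 0.32 and −0.01 on vehicle against WT, and Cbx8 at −0.11, 0.07 and −0.09. Cbx8 stood at 0.13 in cortex. Tibialis Cbx6 averaged 7.08 ± 1.95 CPM in Q175 on vehicle and 13.4 ± 11.8 CPM in WT (log2 −0.93 ± 0.42, edgeR adjusted p = 0.5), and WT tibialis F3 and M4 held cortical transcripts at 12.2% and 6.48% of their cortical level. Without the libraries that held another tissue's transcripts, tibialis Cbx6 stood at 0.05 ± 0.21 and tibialis Sfmbt2 at 0.21 ± 0.41, the opposite sign for both.

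**Figure D4:**
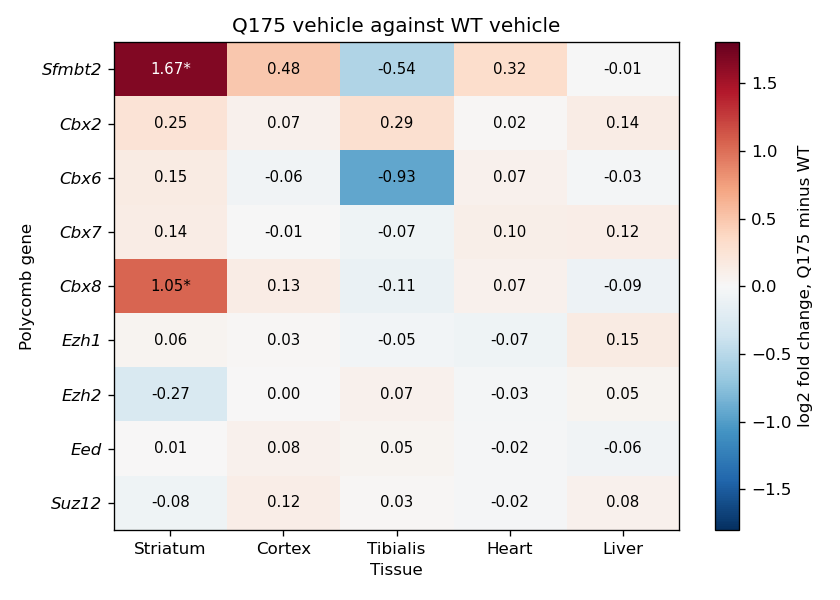
Log2 fold change of Q175 on vehicle against WT for the 9 members in each tissue, on a colour scale, with * for an edgeR adjusted p under 0.05. The marked cells are Sfmbt2 at 1.67 and Cbx8 at 1.05, both in striatum.

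Each mouse gave all tissues, so the genotype effect in striatum was tested against that in another tissue on the difference within the animal, with limma. For Sfmbt2 the striatal effect exceeded that in cortex by 1.18 ± 0.18 (limma adjusted p = 0.00112) and that in heart by 1.52 ± 0.30 (limma adjusted p = 0.0121). It exceeded that in tibialis by 1.97 ± 0.40 (limma adjusted p = 0.0507) and that in liver by 1.57 ± 0.42 (limma adjusted p = 0.0927), and these missed the threshold. For Cbx8 it exceeded that in heart by 0.93 ± 0.19 (limma adjusted p = 0.0142) and that in liver by 1.09 ± 0.20 (limma adjusted p = 0.00790). The calls against heart did not hold throughout: Sfmbt2 stood at 1.38 without the libraries that held another tissue's transcripts (limma adjusted p = 0.0583), and Cbx8 at 0.88 on log2(FPKM + 0.1) (limma adjusted p = 0.199). The Cbx8 differences of 0.88 ± 0.23 from cortex (limma adjusted p = 0.164) and 0.99 ± 0.39 from tibialis (limma adjusted p = 0.741) were not called. Without the 3 mice whose striata stood apart, Sfmbt2 also passed against tibialis (2.11 ± 0.37, limma adjusted p = 0.00825) and liver (1.79 ± 0.40, limma adjusted p = 0.0249), and Cbx8 against cortex (1.07 ± 0.19, limma adjusted p = 0.00460), while Cbx8 against tibialis did not (limma adjusted p = 0.545). These 3 striata were picked after the data were seen and held the lowest Sfmbt2 and Cbx8 levels of all Q175 striata. The calls gained without them are therefore no added support. Both genes were also chosen with their rise in Q175 striatum already known, and that rise enters each of these tests. With all mice kept, 25 of 16888 genes (0.148%) passed against cortex and 8 of 13777 (0.0581%) against tibialis. Against heart 118 of 14636 genes (0.806%) then passed, and against liver 74 of 13603 (0.544%). Without the 3 mice, more genes passed, with 122 of 16888 against cortex and 25 of 13777 against tibialis. Against heart 179 of 14636 genes then passed, and against liver 120 of 13603.

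In both sexes the estimates for Sfmbt2 and Cbx8 in striatum were positive. The log2 fold change of Sfmbt2 on vehicle against WT was 1.59 in females and 1.76 in males, a difference of −0.18 ± 0.36, and that of Cbx8 was 1.008 in females and 1.09 in males, a difference of −0.08 ± 0.34. Without the 3 striata that stood apart, all of them from males, these differences were −0.39 ± 0.22 and −0.25 ± 0.29. No member passed a test of this difference in any tissue, and of all genes 0.0058% passed in striatum and 0% in the other tissues. With 4 mice of each sex in a group, these differences were measured to no better than their standard errors.

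The members differed widely in level, which FPKM, scaled by gene length, allows to be compared between genes. In WT striatum Cbx6 averaged 29.0 ± 5.67 FPKM, Ezh1 17.7 ± 1.17, Suz12 16.7 ± 1.95, Cbx7 10.99 ± 2.73, Eed 7.80 ± 0.687 and Ezh2 7.33 ± 0.711 FPKM (SD, n = 8 each). The lowest were Cbx8 at 0.958 ± 0.20, Cbx2 at 0.730 ± 0.195 and Sfmbt2 at 0.576 ± 0.175 FPKM. In Q175 striatum on vehicle Sfmbt2 averaged 1.75 ± 0.387 FPKM, still far below Cbx6 at 34.5 ± 7.96 FPKM.

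Across WT tissues, the members fell into brain-rich and other genes. Sfmbt2 averaged 0.813 ± 0.179 FPKM in cortex and 0.576 ± 0.175 FPKM in striatum, which did not differ beyond their spread (edgeR adjusted p = 0.195), and 0.0533 FPKM in heart, 0.0492 FPKM in tibialis and 0.0296 FPKM in liver, which were not ordered either. Cbx6 had the same shape, with 40.2 ± 13.5 FPKM in cortex, 29.0 ± 5.67 FPKM in striatum, 4.43 FPKM in heart, 2.70 ± 2.82 FPKM in tibialis and 0.960 FPKM in liver. WT tibialis F3 and M4, which held cortical transcripts, had 8.47 and 5.58 FPKM of Cbx6, and the 5 WT tibialis libraries without another tissue's transcripts averaged 1.09 ± 0.447 FPKM. In those 5, Sfmbt2 averaged 0.0267, Cbx7 3.43 and Cbx8 0.207 FPKM. Cbx2 and Cbx8 were instead highest in liver, at 2.43 ± 0.463 and 2.43 ± 0.421 FPKM.

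Cbx2 followed in heart at 0.792, striatum at 0.730, cortex at 0.551 and tibialis at 0.128 FPKM. Each neighbouring pair was past the edgeR threshold, which was applied to scaled counts and not to FPKM. Heart and striatum lay close in FPKM, while heart was higher by log2 0.70 ± 0.18 in scaled counts. Cbx8 was at 1.37 FPKM in cortex, 1.12 in heart, 0.958 in striatum and 0.398 in tibialis, and cortex, heart and striatum did not differ beyond their spread. Cbx7 was flatter, from 10.99 FPKM in striatum and 10.9 in cortex over 7.44 in heart and 4.93 in tibialis to 3.70 in liver, and only the step to liver was past the threshold.

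Among the PRC2 genes, Ezh2 was highest in striatum at 7.33 ± 0.711 FPKM, above cortex at 4.56 ± 0.916 FPKM (log2 0.84 ± 0.14, edgeR adjusted p = 1.56e-05), with 2.47 in heart, 2.27 in tibialis and 1.92 in liver. Suz12 was at 16.7 FPKM in striatum, 14.9 in cortex, 6.42 in heart, 5.98 in tibialis and 5.12 in liver, and Ezh1 at 18.6 FPKM in cortex, 17.7 in striatum, 9.94 in heart, 7.39 in tibialis and 5.19 in liver. In scaled counts Ezh1 did not pass the edgeR threshold between either brain region and heart or tibialis, at log2 0.03 to 0.11. Ezh1 was lower in liver than in each other tissue. Ezh2 did not pass between cortex and heart, at log2 0.03. In FPKM Eed varied least between tissues, at 8.98 FPKM in tibialis, 7.80 in striatum, 7.58 in cortex, 6.52 in heart and 6.31 in liver. Its scaled counts differed more, with a log2 difference of −1.44 between cortex and tibialis (edgeR adjusted p = 7.94e-11), a wider span than the 0.82 of Ezh1 and the 0.79 of Cbx7, both between striatum and liver. Of 36 neighbouring pairs in these orders, 19 passed the edgeR threshold, 16 in the order of the FPKM and 3 against it, and 21 passed in either direction without the libraries that held another tissue's transcripts. Of all genes 26.3% passed between striatum and cortex. The share was 80.9%, 84.5% and 86.4% for striatum against tibialis, heart and liver, 81.8%, 83.1% and 85.9% for cortex against the same tissues, 69% and 81.1% for tibialis against heart and liver, and 70.7% for heart against liver. In 8 pairs the scaled counts ran against the order of the FPKM, for Cbx7, Cbx8, Ezh1, Ezh2, Eed and Suz12, including the 3 that passed (Ezh2 and Suz12 between heart and tibialis, and Eed between cortex and heart), so that those steps rest on the scaling and the length used.

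**Figure D5:**
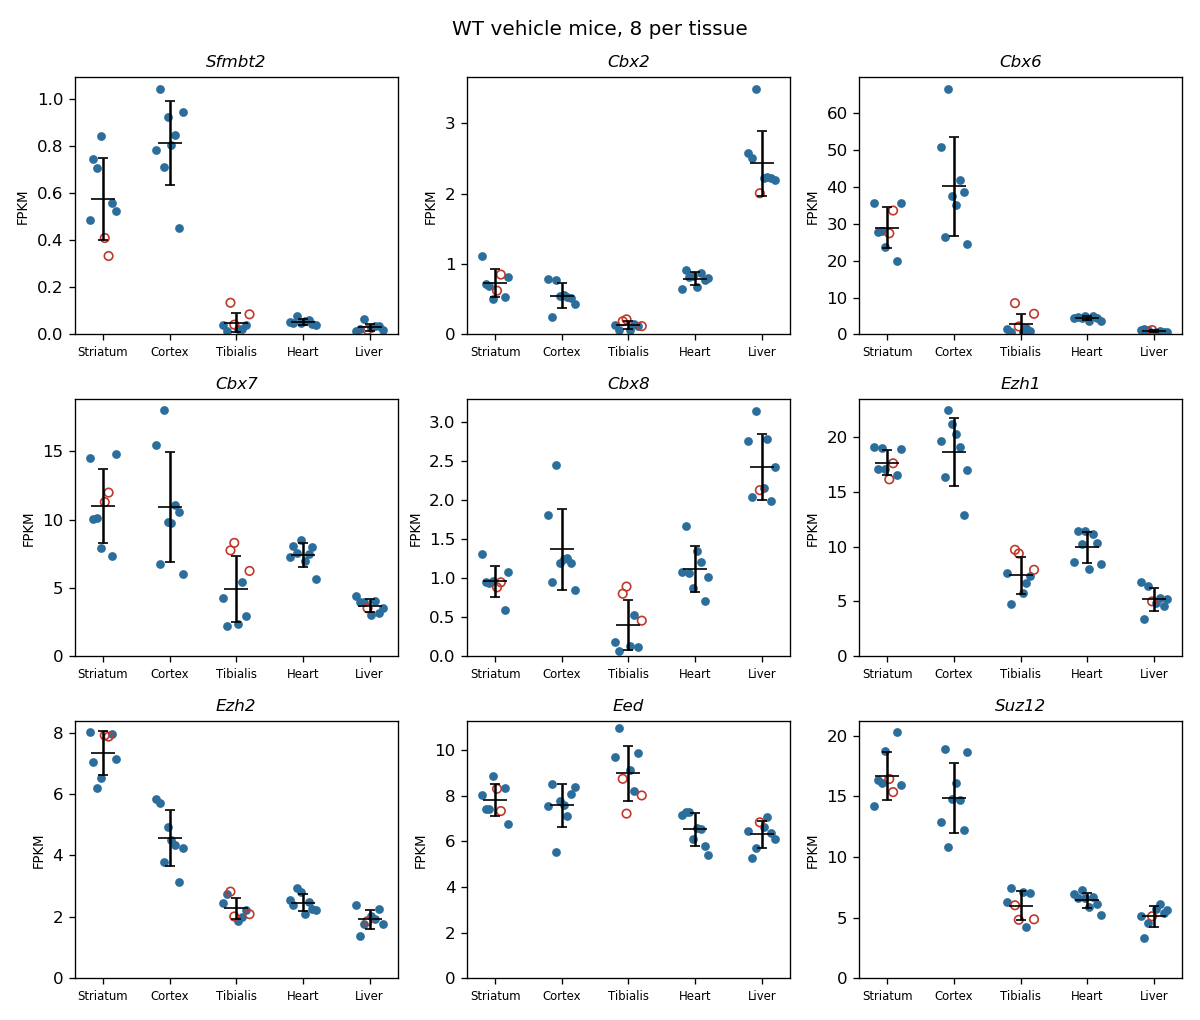
Level of each member in the 5 tissues of WT mice (FPKM, 1 panel per gene, each with its own linear axis from 0), with bars for the mean ± SD of 8 mice per tissue. Red open circles are libraries with over 0.1% of another tissue's transcripts. Sfmbt2 and Cbx6 are highest in the brain regions, and Cbx2 and Cbx8 in liver.

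The genes whose striatal pattern was most like that of a member were found by correlation of log2 CPM over the 32 striata, among 12930 genes, as a description. For Sfmbt2 they were Wt1 (r = 0.921), Gprasp2 (0.919), Shox2 (0.913), Pcdhb9 (0.907) and Pcdhb3 (0.900). After group and sex were taken out these were 0.719, 0.792, 0.722, 0.694 and 0.592, and without the 3 striata that stood apart −0.252, 0.546, 0.178, 0.643 and 0.432. Wt1 also served above to describe those 3 striata. For Cbx8 they were Nagk (r = 0.940), Gng3 (0.935), Galns (0.922) and Rgs19 (0.909). Sfmbt2 and Cbx8 correlated with each other at r = 0.785, at 0.326 after group and sex were taken out, and at −0.473 when the 3 striata were left out as well. These points share the genotype difference and the GC slope. After group and sex were taken out, Cbx8 correlated with the slope at 0.698 and Sfmbt2 at −0.273. Without the 3 striata these correlations were 0.872 and −0.556, and their part in the values above was not tested.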

How the data were processed

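RNA was sequenced from 160 libraries of 32 mice, with total RNA taken by the miRNeasy kit and libraries made by standard Illumina protocols, per the labels. The authors deposited estimated counts and FPKM for 43432 Ensembl genes. The submitters' processing notes name CASAVA 1.8.2. An aligner, a build, an annotation and a strand setting are not given in the sources read, so that Cbx7 reads cannot be separated from those of Apobec3, which overlaps it on the other strand. Non-whole values (tolerance 0.001) made up 26.3% of the deposited estimated counts that exceeded 0, and counts were rounded for testing. The gene length implied by the deposited FPKM varied by more than 1% between libraries in 72.3% of 2327 genes checked.

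Each tissue was fitted in edgeR 4.0.16 (R 4.3.3) over its 32 libraries with arm and sex, after filterByExpr and TMM scaling, by the robust quasi-likelihood test. Adjusted p-values are Benjamini-Hochberg over all genes tested, with a threshold of 0.05. Differences between tissues were tested per animal with limma 3.58.1, on log2 CPM (prior count 2) of striatum minus the other tissue. DESeq2 1.42.0 and limma on log2(FPKM + 0.1) and log2(FPKM + 1) gave alternatives, with FPKM of at least 0.1 in 8 libraries. Scripts were tested on simulated data. Totals of 29.8 M to 44.9 M counts per library (M for mega) set the counting error alone, since reads without molecular identifiers need not be separate molecules. By their names in the table, 60 columns carry a lane and index and 100 a number, and this form served as a covariate.

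The members, marker lists, alternatives and the 3 striata left out were chosen with earlier results of these data known. The genes named are the members, listed Polycomb genes past the threshold and those among the 5 most correlated with Sfmbt2 and with Cbx8. Some genes that this rule takes are not reported here. Transcript GC content came from the longest GENCODE M21 transcript of 99.3% of the 14394 striatal genes used. The GC slope, and the covariate fits, tissue differences, sex split and correlations without the 3 striata, were chosen after the data were seen.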

Additional observations from a re-analysis of the deposited data

Results flagged for a closer look

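Over 9 members, 5 tissues and 4 arms there were 180 groups of 8 values. In 15 of them the highest or lowest library stood apart from the rest by Dixon's criterion at the 95% level, and chance gives about 1 in 20. In striatum these were Sfmbt2 in Q175 vehicle M2, which stood low at 5.428 CPM, and Ezh1 in 100 mg/kg F2, which stood high at 73.75 CPM. In cortex they were Cbx6 in Q175 vehicle M3 at 360.9 CPM and Cbx8 in 100 mg/kg F4 at 5.518 CPM.

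In tibialis, 100 mg/kg M1 had the highest Sfmbt2 at 0.4916 CPM and the highest Cbx6 at 39.26 CPM of its group. That library also held cortical transcripts at 12.02% of their level in cortex. Cbx6 at 10.71 CPM and Cbx8 at 1.96 CPM stood apart in tibialis 30 mg/kg F4, and Ezh1 at 21.28 CPM in tibialis 100 mg/kg M4.

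In heart, Q175 vehicle F2 stood apart for Cbx7 at 45.17 CPM and for Ezh2 at 8.874 CPM. Heart 30 mg/kg M1 stood apart for Ezh2 at 5.906 CPM, and heart 100 mg/kg M4 for Suz12 at 20.37 CPM. In liver, WT vehicle F3 stood apart for Sfmbt2 at 0.5127 CPM and 100 mg/kg F2 for Cbx6 at 9.13 CPM.

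The genotype effect differed between tissues by a test of the difference itself, for genes chosen with their rise in Q175 striatum already known. For Sfmbt2 striatum exceeded cortex by 1.184 and heart by 1.521 on the log2 scale, and for Cbx8 striatum exceeded heart by 0.9281 and liver by 1.088.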

How the results depend on the processing

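Sfmbt2 and Cbx8 kept their direction in striatum against WT under each of 15 alternatives and without each of 32 libraries. Sfmbt2 ranged over the alternatives from 0.80 to 1.83 on vehicle, 0.95 to 1.92 at 30 mg/kg and 0.76 to 1.88 at 100 mg/kg, and Cbx8 from 0.74 to 1.75, 0.56 to 1.72 and 0.45 to 1.71. The lowest values came from limma on log2(FPKM + 1), which understates folds of low genes and lost the call of Cbx8 at 100 mg/kg (adjusted p = 0.0607), so that 1 member was called there. Without 1 library at a time, 2 to 3 members were called on vehicle, 2 at each dose, and 663 to 1349, 868 to 1390 and 581 to 960 genes in all. With the medium spiny neuron level as a covariate, 8 members were called on vehicle and 5 at 30 mg/kg, with 8683, 3587 and 430 genes in all in the 3 arms. When the 3 striata that stood apart were left out as well, these were 9, 9 and 8 members and 10969, 9633 and 9621 genes, and L3mbtl3 at 100 mg/kg turned to −0.039. With the GC slope, 2794, 3382 and 2598 genes were called, and 3391, 3550 and 3391 without the 3 striata. Without libraries holding another tissue's transcripts, 736 genes were called at 30 mg/kg and 463 at 100 mg/kg. On log2(FPKM + 0.1), 550 of 933 genes called on vehicle were higher, against 447 of 992 by edgeR. Between the doses in cortex DESeq2 called 6 members and a fit of the 2 arms alone 7, and in liver at 100 mg/kg against vehicle a fit of the 2 arms alone called 1, Cbx2. For striatum against another tissue, the GC slope gave 2 members against cortex and 1 against tibialis, and leaving out the 3 striata gave 2 against cortex, 1 against tibialis and 2 against liver. Against heart 0 members were called on log2(FPKM + 0.1) (Cbx8 adjusted p = 0.199) and 1 without libraries holding another tissue's transcripts (Sfmbt2 1.38, adjusted p = 0.0583). Except where the construction shows it, the cause was not tested. With a replicate block 2 members were called in each arm against WT and 937, 1051 and 771 genes in all. The pairing check gave correlations from −0.563 to 0.272 over 8 pairs, 2 of them over 0.1, so the numbers do not pair the striata. With the column name form as a covariate Sfmbt2 stood at 1.67 and Cbx8 at 1.05 on vehicle. Low counts limit Cbx2, Cbx8 and Sfmbt2 most.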
